A study of Mus musculus with 21 samples.

Results

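The cells described here were the neutrophils of regenerating mouse tibialis anterior muscle, a muscle at the front of the lower leg. They were all cells that carried the label Neutrophils after integration by Harmony, one of 3 batch-correction methods with which the study labelled its cells, and they numbered 2414 of 87822 cells. Tables with 1 row per cell came from 21 single-cell RNA sequencing libraries, made with the 10x Chromium v3 kit from dissociated whole muscle of female C57Bl/6J mice aged 20 months, with 1 mouse per library. Mice were uninjured (n = 4) or were sampled at 1 (n = 4), 2 (n = 3), 3.5 (n = 4), 5 (n = 3) or 7 (n = 3) days post-injury (dpi), the injury being an injection of notexin, a snake venom toxin that destroys myofibers. Age, sex and strain were shared by all groups, and the uninjured mice were the only control.

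Neutrophils are short-lived granulocytes that are made in the bone marrow and circulate in blood. After a sterile injury of muscle they are among the first leukocytes to leave the vessels, where they release granule proteases and oxidants, take up debris and secrete chemokines that draw in monocytes. Mature neutrophils carry little RNA and make little new protein, which leaves few transcripts per cell to be counted.

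Each library held 974 to 10556 cells, 5602464 to 70730171 UMIs (unique molecular identifiers, each standing for 1 captured transcript) after correction for ambient RNA, and a sequencing saturation of 28.1% to 87.4%. The share of barcodes that the study had kept as cells was 39.9% ± 10.4 (SD, n = 4) in uninjured muscle and 75.1% ± 13.9 (n = 4) at 1 dpi, and the part of this difference in the neutrophil shares was not tested. Of 86853 distinct cell barcodes, 966 occurred in more than 1 library. They were carried by 55 neutrophils, or 2.28%, and 1 barcode was a neutrophil in a pair of libraries. Values of single genes were not analysed here, so the levels of the granulocyte markers S100a8, S100a9 and Csf3r in these cells are not given, and the label was compared instead with the labels of the other integration methods.

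The label matched those of the other methods for most cells at 1 dpi and for few cells in some later libraries. Of the 2414 Harmony neutrophils, BBKNN called 1831 neutrophils (75.8%) and Scanorama 1730 (71.7%). Both methods gave the label to 1726 cells (71.5%), only 1 of them to 109 cells, and neither to 579 cells. In the other direction the match was closer, since 95.8% of the 1911 BBKNN neutrophils and 98% of the 1765 Scanorama neutrophils were also Harmony neutrophils. The Harmony label was thus the widest of the sets, and the cells that it alone included were mostly given monocyte labels elsewhere. BBKNN placed 230 of the 2414 cells (9.53%) with inflammatory monocytes and 224 (9.28%) with infiltrating monocytes, and Scanorama placed 244 (10.1%) and 256 (10.6%) there.

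The share of Harmony neutrophils with the label of both other methods was 90.4% of 1558 cells at 1 dpi and 37.3% of 485 cells at 2 dpi. On days 3.5, 5 and 7 it was 37.6% of 178 cells, 21.4% of 117 cells and 42.6% of 47 cells. In the uninjured mice it was 24 of 29 cells. Some libraries of each time point lowered these later values, and at 5 dpi these were replicates A and B, with 51 and 59 of the 117 cells. In 6 of the 17 libraries with at least 10 neutrophils, fewer than 50% of the cells had both other labels. At 2 dpi this was replicate A, with 23 of 298 cells, whereas replicates B and C had 126 of 151 and 32 of 36. At 3.5 dpi replicate C had 10 of 95 cells and replicate D 19 of 42, against 17 of 19 in A and 21 of 22 in B. At 5 dpi the counts were 15 of 51 in A, 4 of 59 in B and 6 of 7 in C. At 7 dpi they were 10 of 17 in A, 8 of 10 in B and 2 of 20 in C. Every time point after 1 dpi therefore held at least 1 library with a high match and at least 1 with a low match. At 5 dpi the only library with a high match had 7 neutrophils.

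The 6 libraries of low match held 492 of the 688 cells without all 3 labels (71.5%), and 275 of these were in 2 dpi replicate A alone. Their sequencing saturation ran from 28.1% to 71.1% with a median of 35.2%, and that of the other 11 libraries from 41.7% to 83.0% with a median of 51.6%. They had a median of 6034 cells against 3838. The estimated ambient RNA fraction was 0.020 to 0.062 in them and 0.013 to 0.056 in the others, so that both ranges overlapped, and the part of depth and of ambient RNA in the label match was not tested. The libraries were grouped in this way after their values were seen.

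**Figure D1:**
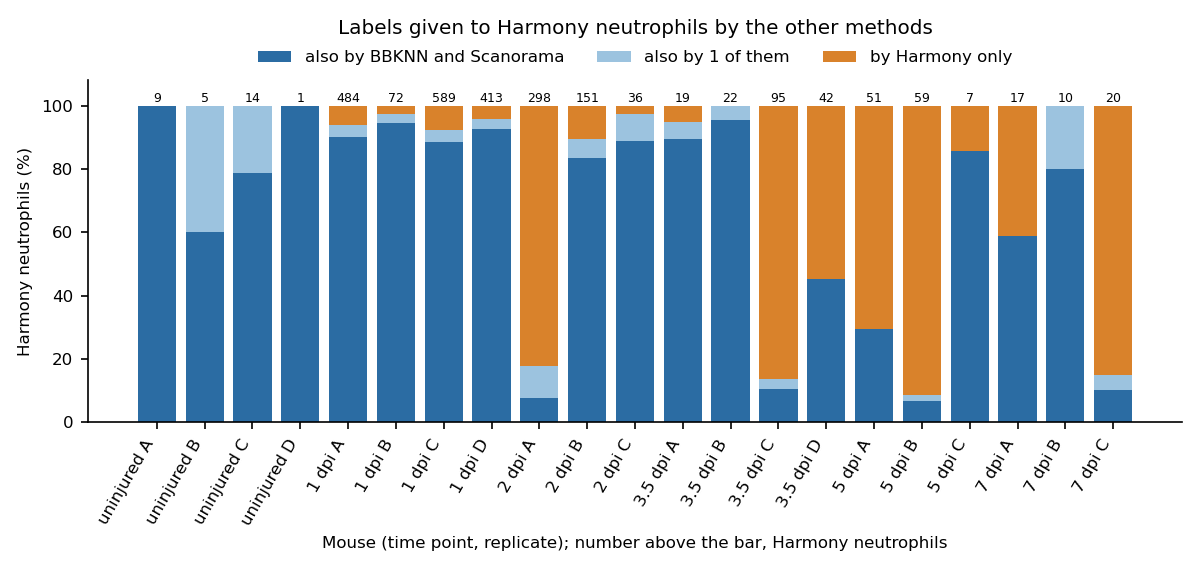
Labels given by the other integration methods to the Harmony neutrophils of each of the 21 libraries (x axis), as a percentage of the library's Harmony neutrophils (y axis), with their number above each bar. Dark blue is the share that BBKNN and Scanorama both called neutrophils, light blue the share called by 1 of them, and orange the share called by neither. The 4 libraries of 1 dpi are dark blue for 88.6% or more. The bars of 2 dpi A, 3.5 dpi C and D, 5 dpi A and B and 7 dpi C are mostly orange.

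BBKNN kept the label more often than Scanorama. Over the 17 libraries the match was 67.2% ± 36.7 (SD) with BBKNN and 62.2% ± 35.6 with Scanorama, a difference of 5.03 ± 6.55 percentage points. It was higher with BBKNN in 13 libraries, equal in 3 and lower in 1, and the two-sided exact sign-flip permutation test gave p = 0.000610.

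The first comparison asked how the share of neutrophils among all cells changed over the injury response. Neutrophils were rare in uninjured muscle and were 11.6% of the cells on average at 1 dpi, and most of this share was gone by 2 dpi. In the uninjured mice the share was 0.397% (9 of 2267 cells), 0.146% (5 of 3413), 0.278% (14 of 5029) and 0.103% (1 of 974). The exact 95% Clopper-Pearson intervals of these 4 libraries ran from 0.182% to 0.752%, from 0.0476% to 0.342%, from 0.152% to 0.467% and from 0.00260% to 0.571%, and they cover counting error only. The uninjured libraries thus could not be ordered at this depth.

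At 1 dpi the share was 16.6% in replicate A (484 cells), 6.02% in B (72 cells), 13.0% in C (589 cells) and 10.8% in D (413 cells). At 2 dpi it was 2.82%, 3.28% and 1.13% in replicates A to C. All 1 dpi libraries lay above all 2 dpi libraries, and all 2 dpi libraries above all uninjured ones. At 3.5 dpi replicates A to D had 0.607%, 0.836%, 1.41% and 1.08%, at 5 dpi replicates A to C had 0.958%, 0.696% and 0.264%, and at 7 dpi they had 0.285%, 0.236% and 0.883%. The ranges of 3.5, 5 and 7 dpi overlapped one another, and those of 5 and 7 dpi also overlapped the uninjured range.

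The group means were 0.231% ± 0.133 (SD, n = 4) in uninjured muscle, 11.6% ± 4.44 (n = 4) on day 1, 2.41% ± 1.13 (n = 3) on day 2, 0.982% ± 0.343 (n = 4) on day 3.5, 0.640% ± 0.351 (n = 3) on day 5 and 0.468% ± 0.361 (n = 3) on day 7. The largest difference from uninjured muscle was 11.4 percentage points at 1 dpi. The share differed over the 6 time points when F, computed on arcsine square root shares, was permuted over the libraries (permutation test, p = 1e-05, the smallest that 100000 resamples can give, adjusted p = 4.6e-05 over the 23 Harmony cell types). Of these 23 types 78.3% passed the same test, and 47.8% passed it with a rise as their largest difference, so that a change over time was the rule among the cell types of this muscle. A share also depends on how many other cells were recovered, and more neutrophils and fewer other cells cannot be told apart in it.

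**Figure D2:**
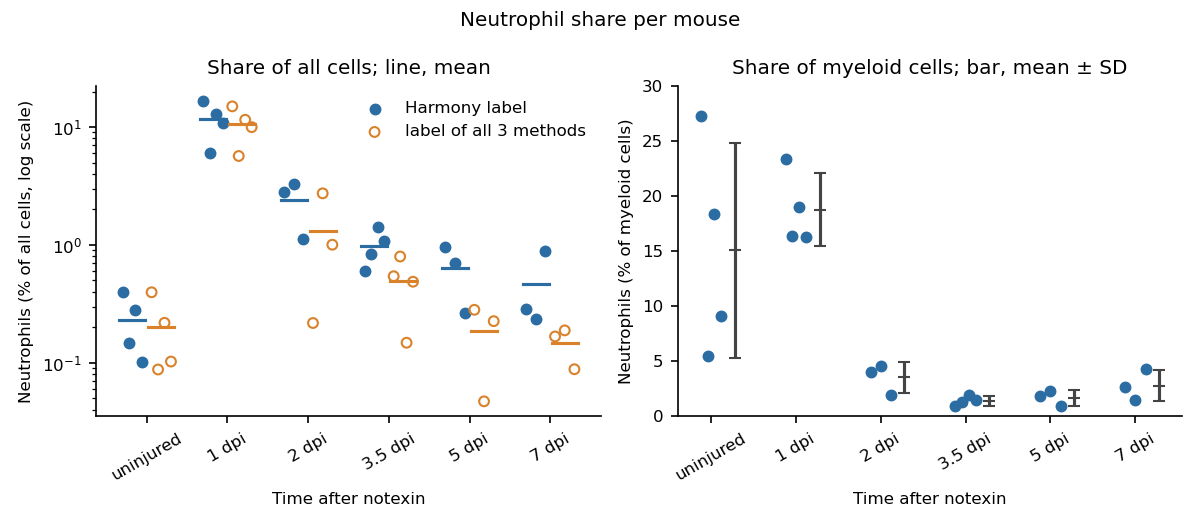
Neutrophil share per mouse by time after notexin. Left, percent of all cells on a log scale, with filled points for the Harmony label, open points for cells with the label of all 3 methods and lines for group means, which are 11.6% and 10.5% at 1 dpi. Right, percent of myeloid cells (linear scale) with mean ± SD, where uninjured and 1 dpi mice lie above 5% and all later mice below it.

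The peak at 1 dpi stood with the stricter set of cells, and the excess over uninjured muscle was smaller at 2 and 3.5 dpi and absent from the means at 5 and 7 dpi. Counting only cells called neutrophils by all 3 methods, the mean share was 0.202% ± 0.143 (SD, n = 4) in uninjured muscle, 10.5% ± 3.85 (n = 4) on day 1, 1.32% ± 1.29 (n = 3) on day 2, 0.494% ± 0.267 (n = 4) on day 3.5, 0.185% ± 0.123 (n = 3) on day 5 and 0.148% ± 0.0529 (n = 3) at 7 dpi. The permutation test over time gave an adjusted p of 9.2e-05, with a largest difference of 10.3 points at 1 dpi. At 2 dpi the share of this set was 0.218% in replicate A, 2.74% in B and 1.01% in C, and replicate A lay within the uninjured range of 0.0879% to 0.397%. Without the 6 libraries of low match, the test of the Harmony label gave an adjusted p of 0.00240 and the difference at 1 dpi was unchanged, because none of the 6 was uninjured or from 1 dpi.

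Of all neutrophils in the data, 64.5% came from 1 dpi and 20.1% from 2 dpi. By mean share, neutrophils ranked 17 among the 23 cell types in uninjured muscle and 3 at 1 dpi. On days 2, 3.5, 5 and 7 they ranked 8, 15, 22 and 23. In single mice the rank at 1 dpi was between 2 and 5. Neutrophils were thus among the most abundant labelled types at 1 dpi and the least abundant by mean share at 7 dpi.

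For pairs of time points, the difference in mean share was tested by exact permutation (two-sided, adjusted over 9 pairs). Against uninjured muscle the share was higher by 11.4 points at 1 dpi, 2.18 points at 2 dpi and 0.751 points at 3.5 dpi, without overlap between the groups. Such a rise without overlap was found in 30.4%, 34.8% and 43.5% of the 23 cell types at these times. Each of the 3 exact p-values was 0.0286, the smallest that the design allows, and each adjusted p was 0.0857. The differences from uninjured muscle at 5 dpi (0.408 points, exact p = 0.114) and 7 dpi (0.237 points, exact p = 0.257) were within the overlap of the groups.

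Between neighbouring time points, the difference was -9.19 points from 1 to 2 dpi, without overlap (exact p = 0.0571, adjusted p = 0.103), and 4.35% of the cell types, that is neutrophils alone, were lower without overlap in this pair. It was -1.43 points from 2 to 3.5 dpi (exact p = 0.0571), -0.343 points from 3.5 to 5 dpi (exact p = 0.257) and -0.171 points from 5 to 7 dpi (exact p = 0.6, where 3 against 3 mice cannot go below 0.1). None of the 9 pairs passed the adjusted threshold of 0.05 in the exact permutation tests, and 3 of 9 had an unadjusted p under it. With the cells called by all 3 methods, the 1 dpi libraries still lay above all uninjured ones. The 2 and 3.5 dpi libraries then overlapped the uninjured ones (exact p = 0.0857 for each), and the means at 5 and 7 dpi differed from the uninjured mean by -0.0165 and -0.0534 points (exact p = 0.857 and 0.686).

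All 17 injured mice together had a mean share of 3.58% ± 5.04 (SD), 3.35 points above the uninjured mean. Of these, 14 lay above the highest uninjured mouse. The exact permutation test of this pooled difference gave p = 0.110, and 65.2% of the cell types passed it. The pooled injured group spanned 0.236% to 16.6%.

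The share among myeloid cells asked how neutrophils stood against monocytes, macrophages and dendritic cells, without the other cells of the muscle. Their part of the myeloid cells overlapped between uninjured muscle and 1 dpi, and it was smaller in every mouse afterwards. In uninjured mice the values were 27.3%, 5.49%, 18.4% and 9.09% of only 33, 91, 76 and 11 myeloid cells. At 1 dpi they were 23.4%, 16.4%, 19.0% and 16.3% of 439 to 3098 myeloid cells. Both groups overlapped, at 15.1% ± 9.79 (SD, n = 4) and 18.8% ± 3.34 (n = 4).

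From 2 dpi on, the share of myeloid cells was below 5% in every mouse. It was 4.05%, 4.59% and 1.97% at 2 dpi, 0.914%, 1.27%, 1.97% and 1.47% at 3.5 dpi, 1.82%, 2.31% and 0.922% at 5 dpi, and 2.63%, 1.45% and 4.31% at 7 dpi. These mice all lay below the uninjured and the 1 dpi mice. The permutation test over time gave an adjusted p of 0.000537 over 7 myeloid types, 100% of which passed, and the largest difference from uninjured muscle was -13.7 points at 3.5 dpi, where the mean was 1.41% ± 0.442 (n = 4). Among all immune cells, lymphocytes included, the mean was 9.21% ± 6.07 in uninjured muscle and 18.2% ± 3.19 at 1 dpi, and the largest difference from uninjured muscle was then an increase of 9.03 points at 1 dpi (permutation test, adjusted p = 0.000129).

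Because they held few transcripts each, neutrophils contributed less RNA than cells. At 1 dpi they were 11.6% of the cells and gave 4.0% ± 1.78 (SD, n = 4) of the UMIs, with 6.60%, 3.11%, 3.62% and 2.65% in replicates A to D. In uninjured muscle they gave 0.122% ± 0.0720 (n = 4) and at 2 dpi 0.732% ± 0.462 (n = 3).

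The RNA content per cell was compared with that of other cells of the same mouse. Over all 2414 neutrophils the median was 2075 UMIs and 866 genes per cell. The median was 6864 UMIs and 2258 genes over 7323 inflammatory monocytes, and 12107 UMIs and 3182 genes over 11670 patrolling monocytes. Both are Harmony labels of cells from the dissociated muscle, and they were taken as the myeloid types nearest to neutrophils in origin. The third Harmony monocyte label, Cxcl10+ monocytes, was counted only among all other cells. By mouse, the median of neutrophils was between 1344 UMIs (2 dpi replicate B) and 4348 UMIs (7 dpi replicate C), with a middle value of 2077, in the 17 mice with at least 10 neutrophils.

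In each of these 17 mice, neutrophils had fewer UMIs than inflammatory monocytes. The median log2 UMIs per cell was 11.15 for neutrophils and 12.81 for inflammatory monocytes, a difference of -1.66 ± 0.56 (SD), or 0.316-fold (two-sided exact sign-flip permutation test, adjusted p = 3.43e-05 over 9 tests). Against patrolling monocytes the ratio was 0.186-fold, lower in 16 of 16 mice (exact permutation test, adjusted p = 4.58e-05), and against all other cells of the mouse 0.308-fold, lower in 17 of 17 (adjusted p = 3.43e-05 in the exact permutation test). The number of genes followed, with 0.410-fold, 0.300-fold and 0.394-fold the genes of the 3 comparison sets. All 9 tests of UMIs, genes and cells with few genes passed, and the labels themselves rest on the expression of the cells compared.

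**Figure D3:**
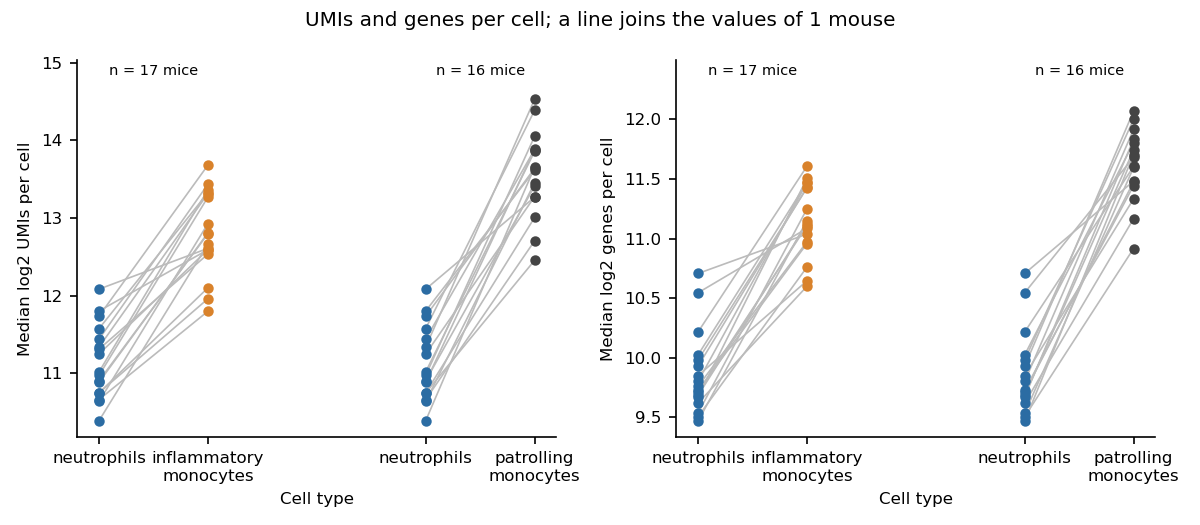
Median log2 UMIs per cell (left) and median log2 genes per cell (right) of neutrophils and of monocytes, with 1 line per mouse that had at least 10 cells of both kinds. Every line rises from neutrophils to inflammatory monocytes (17 mice) and to patrolling monocytes (16 mice), with mean log2 differences in UMIs of -1.66 and -2.43 for neutrophils.

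Many neutrophils lay near the lower limit of the data. The study states a minimum of 750 genes, yet the deposited tables held cells below it, and 33.2% of the neutrophils were such cells (802 of 2414). In the mean over 17 mice, 25.9% of neutrophils and 1.75% of inflammatory monocytes had fewer than 750 genes, higher for neutrophils in 14 mice and lower in 3 (exact sign-flip permutation test, adjusted p = 0.000196). The share varied widely among libraries of 1 time point. At 1 dpi it was 7.02%, 0%, 52.0% and 33.2% in replicates A to D, whose sequencing saturation was 67.0%, 83.0%, 41.7% and 51.6%. The part of depth in this order was not tested. A filter at 750 genes left a difference of 9.33 points between 1 dpi and uninjured muscle in the share of all cells, and a filter at 1000 genes, 2000 UMIs and 15% mitochondrial UMIs left 6.07 points, with adjusted p of 4.6e-05 and 0.000537 in the permutation test.

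The cells called by all 3 methods had still less RNA. Their median log2 UMIs was 10.87, against 12.90 in inflammatory monocytes of the same 14 mice, a difference of -2.03 ± 0.36 (exact sign-flip permutation test, adjusted p = 0.000275), and 44.1% of them had fewer than 750 genes.

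Within a window of UMIs, neutrophils also had fewer genes, but their UMIs were not equal to those of monocytes inside it. Among cells with 1500 to 3000 UMIs, the median number of genes was 925 in neutrophils and 1134 in inflammatory monocytes over 9 mice with at least 10 such cells of each, a difference of -209 ± 81.9 genes. Neutrophils were lower in 9 of 9 mice (exact sign-flip permutation test, p = 0.00391, adjusted p = 0.00586). Inside the window these mice had a median of 2036 UMIs in neutrophils and 2397 in inflammatory monocytes, lower in 9 of 9, and the part of this in the gene difference was not tested. In a window of 1000 to 2000 UMIs the difference was -131 genes and did not pass (adjusted p = 0.0938 in the exact permutation test). Against all other cells the difference was -131 ± 95.2 genes, lower in 11 of 12 mice (adjusted p = 0.00439 in the exact permutation test), with 2118 UMIs in neutrophils and 2217 in the other cells, lower in 7 of 12. Against patrolling monocytes it was -221 ± 74.4 genes in 4 of 4 mice, where the exact permutation test cannot go below p = 0.125. With the cells of all 3 labels, the difference from inflammatory monocytes was -291 ± 8.52 genes in 5 of 5 mice, and the exact permutation test could not go below an unadjusted p of 0.0625.

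The tables also give, for each cell, the percentage of its UMIs from sets of genes. These are values with no test between cell types, since the labels were made from the same genes. Neutrophils stood apart from monocytes in ribosomal protein genes, which code for the protein part of the ribosome. The median ribosomal share was 4.43% ± 2.70 (SD over 17 mice) in neutrophils and 11.9% ± 1.22 in inflammatory monocytes, lower in 17 of 17 mice. In cells called by all 3 methods it was 2.62% ± 0.643 against 11.6% ± 0.965, lower in 14 of 14.

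Heat shock genes, which code for chaperones, made up 0.396% ± 0.206 of UMIs in neutrophils and 0.772% ± 0.203 in inflammatory monocytes, lower in 16 of 17 mice. In the other direction, transcription factor genes made up 4.88% ± 0.856 in neutrophils and 3.60% ± 0.301 in inflammatory monocytes, higher in 17 of 17. Long intergenic noncoding RNAs (2.26% ± 0.368 against 1.18% ± 0.189) were higher in 17 of 17 mice and antisense transcripts (0.104% ± 0.0323 against 0.0544% ± 0.00842) in 16 of 17. Against patrolling monocytes, transcription factor genes, long intergenic noncoding RNAs and antisense transcripts were each higher in neutrophils in 16 of 16 mice and ribosomal protein genes lower in 15 of 16. The heat shock share (0.408% ± 0.206 against 0.593% ± 0.0915) was lower in 10 of these mice and higher in 6, so that it gave no common direction there. For cells called by all 3 methods it was 0.245% ± 0.0575 against 0.612% ± 0.0895 in patrolling monocytes, lower in 13 of 13 mice. The mitochondrial share was 5.23% ± 3.78 in neutrophils and 4.51% ± 1.25 in inflammatory monocytes. It was lower in 10 mice and higher in 7, so that the mice gave no common direction. For cells called by all 3 methods it was 3.43% ± 3.31 against 4.35% ± 1.28, lower in 11 mice and higher in 3. The median shares of small nucleolar, small nuclear and micro-RNA genes were 0 in all 17 mice.

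Harmony neutrophils without the other labels differed from the rest within the same library. In the 8 mice with at least 10 cells of each kind, the median ribosomal share was 1.85% to 3.93% in cells called by all 3 methods and 4.63% to 12.4% in the other Harmony neutrophils, higher in the latter in 8 of 8 mice. The heat shock share was 0.205% to 0.314% in the former and 0.547% to 0.983% in the latter, also higher in 8 of 8. Neither pair of ranges overlapped. The cells without all 3 labels also had more UMIs (1671 to 11614 against 1209 to 2699), more genes (809.0 to 2934 against 607 to 1020) and more mitochondrial UMIs (2.04% to 14.7% against 0.785% to 3.12%) in 8 of 8 mice. No other measure of the 13 differed in the same direction in all 8. The transcription factor share was lower in 7 and higher in 1. Long intergenic noncoding and antisense shares were each lower in 5 and higher in 3, and the protein-coding share was higher in 4 and lower in 4. All 3 labels rest on the expression of the cells compared.

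In 2 dpi replicate A, which held 275 of the cells without all 3 labels, their median mitochondrial share was 14.7%, against 2.87% in its 23 cells with all 3 labels. At 1 dpi the cells without all 3 labels were few but rich in RNA. In replicate A, 48 of them had a median of 11614 UMIs against 2699 in the other 436, and in replicate C 67 of them had 7793 UMIs against 1524 in 522. In the latter library their ribosomal share was 8.92% against 2.50%. All of these cells had passed the study's doublet removal, and no further doublet call was made here. Their median DoubletFinder score at 1 dpi was 0.244 in replicate A against 0.168 in cells with all 3 labels. It was 0.206 against 0.159 in C and 0.182 against 0.0182 in D. It was also higher in 2 dpi B (0.178 against 0.151) and 3.5 dpi C (0.158 against 0.120). In 2 dpi A (0.0287 against 0.109), 3.5 dpi D (0.157 against 0.183) and 5 dpi A (0.159 against 0.178) it was lower. The part of doublets in these cells was not tested.

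**Figure D4:**
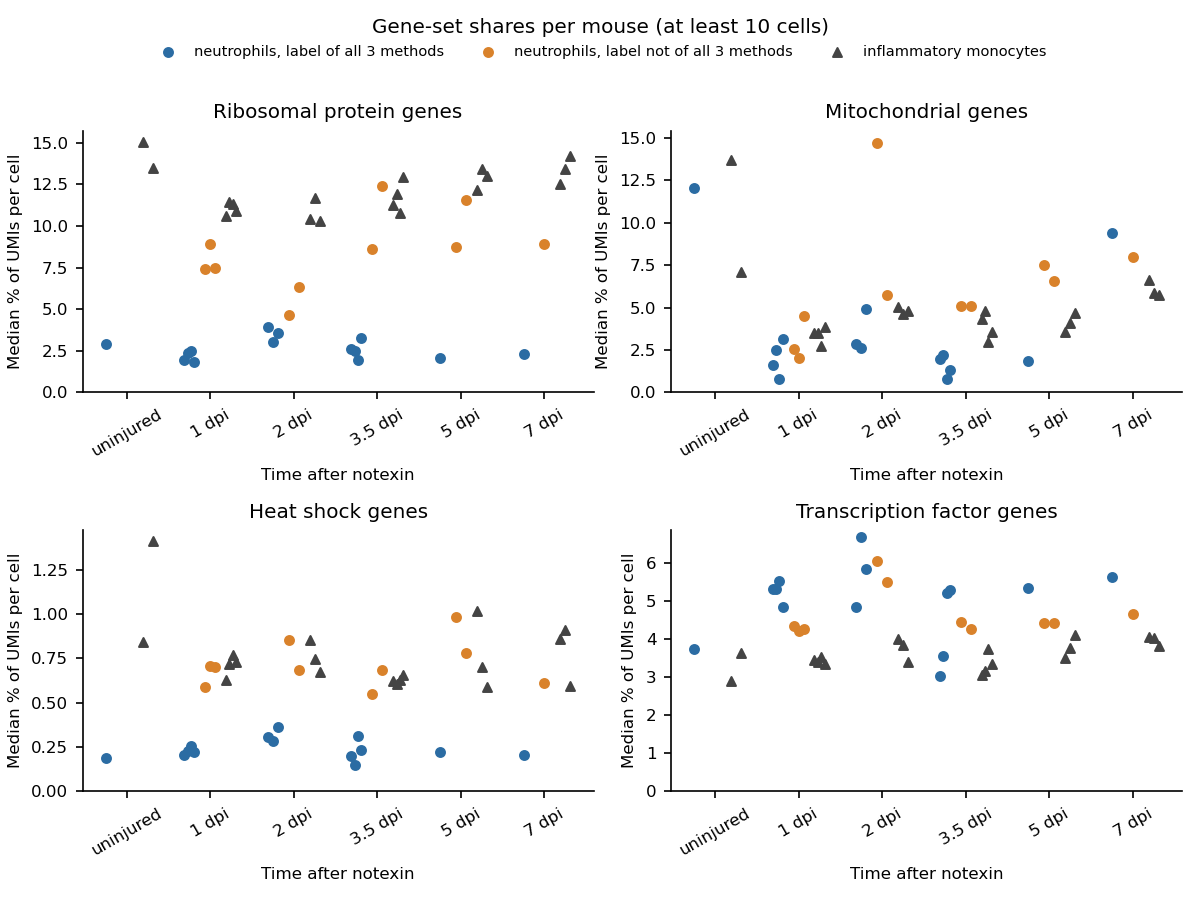
Median percentage of a cell's UMIs from ribosomal protein, mitochondrial, heat shock and transcription factor genes (y axes) by time after notexin (x axes), 1 point per mouse with at least 10 such cells. Blue points are neutrophils with the label of all 3 methods, orange points Harmony neutrophils without all 3 labels, and black triangles inflammatory monocytes; in the ribosomal panel blue points lie below 4%, black triangles above 10% and orange points from 4.63% to 12.4%.

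Whether the neutrophils themselves differed over time was tested on the median of each measure in 16 mice of 1 to 7 dpi. Uninjured muscle was left out, since only 1 uninjured mouse had 10 neutrophils. Of 10 measures, 2 (20%) passed the permutation test after adjustment over the 10. The share of transcription factor genes was 5.18% ± 0.252 (SD, n = 4) at 1 dpi, 6.02% ± 0.491 (n = 3) on day 2 and 4.02% ± 0.706 (n = 4) on day 3.5, with a largest difference from 1 dpi of -1.16 points at 3.5 dpi (adjusted p = 0.0391, permutation test). The share of protein-coding genes was 92.9% ± 0.470 (n = 4) at 1 dpi and 90.7% ± 1.03 (n = 3) at 2 dpi, a difference of -2.25 points (adjusted p = 0.0391, permutation test).

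For transcription factor genes, replicates A to D at 1 dpi had 5.24%, 5.33%, 5.33% and 4.81%, and those at 3.5 dpi had 3.23%, 3.62%, 4.55% and 4.67%. The 2 dpi replicates A to C had 5.96%, 6.55% and 5.57%. Over all Harmony neutrophils, the 3.5 dpi mice lay below and the 2 dpi mice above all 1 dpi mice. Among cells with all 3 labels the range at 1 dpi was 4.86% to 5.53%. In this set 3.5 dpi replicates A to D had 3.03%, 3.56%, 5.23% and 5.30%, and 2 dpi replicates A to C had 4.85%, 6.69% and 5.85%. Neither time point then lay wholly on 1 side of 1 dpi. The share of these genes in all other cells was 3.47% ± 0.120 (n = 4) on day 1 and 2.88% ± 0.186 (n = 4) on day 3.5, and in inflammatory monocytes 3.44% ± 0.0812 and 3.33% ± 0.308. In patrolling monocytes it was 3.15% ± 0.438 on day 1 and 2.30% ± 0.188 on day 3.5, and the part of a change shared with other cells was not tested. For protein-coding genes, the 2 dpi replicates A to C had 89.5%, 91.3% and 91.3%, all below the 1 dpi values of 92.5%, 92.7%, 93.6% and 92.9%. Both calls depended on single libraries. With the cells called by all 3 methods, none of 10 measures passed the permutation test over 11 mice, and 2 of 10 had an unadjusted p under 0.05. Leaving out 1 library brought the count of measures past the threshold to between 0 and 3, and it was 0 when each of the 4 libraries of 1 dpi, replicates B and C of 2 dpi and replicates A and C of 3.5 dpi was left out in turn.

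At each later time point the ribosomal share was higher in the libraries of low label match than in the others. These libraries were grouped by their cells without all 3 labels, which had the higher ribosomal share. The pattern was therefore not independent of the grouping. Over all Harmony neutrophils the share was 2.10%, 2.41%, 2.65% and 1.91% in replicates A to D at 1 dpi. At 2 dpi it was 4.60% in A, the library of low match, and 3.24% and 3.63% in B and C. At 3.5 dpi it was 2.80% in A and 2.54% in B, against 8.38% in C and 6.36% in D, the libraries of low match. At 5 dpi the low-match libraries A and B had 6.44% and 11.2%, and C, with 7 neutrophils, had 3.41%. At 7 dpi A, B and C had 3.30%, 2.45% and 8.09%. Among cells with all 3 labels, 2 dpi replicates A to C had 3.93%, 3.05% and 3.59%. The 3.5 dpi replicates A to D had 2.63%, 2.50%, 1.93% and 3.24%. At 5 dpi A to C had 2.06%, 1.97% and 3.34%, from 15, 4 and 6 such cells. At 7 dpi they had 2.29%, 2.36% and 2.51%, from 10, 8 and 2. The low-match libraries were then not higher at each time point. For all Harmony neutrophils, the difference from 1 dpi was 6.55 points at 5 dpi and did not pass (adjusted p = 0.116, permutation test). Without the 6 libraries of low match the largest difference was 1.17 points (adjusted p = 0.104, permutation test over 10 mice).

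In those 10 mice, mitochondrial (5.75 points at 7 dpi, adjusted p = 0.0448), heat shock (0.120 points at 2 dpi, adjusted p = 0.00270) and protein-coding shares (-1.66 points at 2 dpi, adjusted p = 0.0448) passed the permutation test, an alternative chosen after the data were seen. The libraries left out were grouped by cells without all 3 labels, which had higher mitochondrial and heat shock shares in 8 of 8 mice. The choice of mice was thus not independent of these measures. In all 16 mice neither of them passed (adjusted p = 0.116 for each, permutation test). Nor did they with the cells of all 3 labels (adjusted p = 0.196 for each, permutation test over 11 mice). The 7 dpi mitochondrial value of those 10 mice rests on replicates A and B, since C was a low-match library. With C included, the mitochondrial share of neutrophils was 9.79%, 5.87% and 7.71% in replicates A to C at 7 dpi. At 1 dpi it was 1.71%, 2.49%, 0.920% and 3.23% in A to D. In uninjured muscle it was 10.8%, 25.9%, 11.9% and 4.18% in replicates A to D, from 9, 5, 14 and 1 neutrophils. Among cells with all 3 labels, 7 dpi replicates A to C had 9.40%, 5.87% and 2.76%, from 10, 8 and 2 cells. The 1 dpi range of this set was 0.799% to 3.12%, so that replicate C lay within it. The other cells of these mice moved too, at 14.8% ± 4.49 (n = 4) in uninjured muscle, 4.36% ± 1.30 (n = 4) on day 1 and 7.02% ± 0.505 (n = 3) on day 7. Inflammatory monocytes had 3.40% ± 0.471 on day 1 and 6.08% ± 0.488 on day 7, and patrolling monocytes 2.91% ± 0.777 and 6.77% ± 1.23. The part of these changes in the neutrophil values was not tested.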

How the data were processed

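Before deposit, reads of the 10x Chromium v3 libraries were mapped by the authors to mm10 in Cell Ranger (3.1.0 per the submitters' processing notes) and corrected for ambient RNA in SoupX. Cells with few genes or transcripts or a high mitochondrial share were removed in Seurat (3.1.5 per these notes) and doublets by DoubletFinder. Cell labels came from integration of these and other libraries by Harmony, BBKNN and Scanorama. The deposited UMI totals are expected counts, which the correction left non-whole. Deposited genes, barcodes and reads per cell are counts. The deposited percent values are shares of a cell's UMIs, and saturation. The deposited fraction values are SoupX contamination and DoubletFinder scores.

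Cells were counted with Python 3.11.15, pandas 2.3.3, numpy 2.4.6 and scipy 1.17.1, with no further filter, and plotted with matplotlib 3.10.9. The mouse was the unit. Time courses used permutation of F over samples (100000 resamples), pairs exact permutation and paired medians exact sign-flip tests, with Benjamini-Hochberg adjustment at 0.05, all tested on simulated data. Alternatives were other labels, scales, denominators, filters, UMI windows and minimum cell numbers, edgeR 4.0.16 (R 4.3.3) on cell numbers, and leaving out each library. Members, cell types and measures named were chosen with earlier results of these data known: the inflammatory and patrolling monocytes, 2 of the 3 Harmony monocyte types, labels given to at least 1 in 20 neutrophils, and all per-cell measures. Per the study's methods, each replicate was a separate experiment on its own animal. Its reporting summary adds that several time points were collected together, with no more than 4 samples on 1 day. Shared collection days were not part of the tests. For pairs of 4 against 3 mice, the smallest p is 1 in 35.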

Additional observations from a re-analysis of the deposited data

Results flagged for a closer look

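In the 27 groups of values examined, each over the libraries of 1 time point, 2 values stood far from the rest of their group. A chance rate of about 1 in 20 such groups was taken as a setting and not computed from these values, and 2 flags are near it. The median mitochondrial share of neutrophils in 3.5 dpi replicate C was 4.82%, while the other 3.5 dpi libraries lay between 2.16% and 2.43%. Of its 95 neutrophils, 85 lacked the label of all 3 methods and had a median of 5.06%. In its 10 cells with all 3 labels the median was 0.785%, below the 1.97%, 2.21% and 1.34% of such cells in replicates A, B and D. The median share of bplncRNA genes, as the files name this set, was 0.00515% in the neutrophils of 3.5 dpi replicate B and 0 in the other libraries of that time point. With the other medians at 0, a median above 0 is flagged whatever its size.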

How the results depend on the processing

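The change of the neutrophil share over time passed in all 14 other settings (adjusted p 3.12e-10 to 0.00452) and without each library in turn (difference at 1 dpi 9.69 to 13.2 points). With edgeR the log2 fold at 1 dpi was 5.41. Replicate letters did not pair the samples (same-letter deviations had a median r of -0.0228 over 48 pairs, and 4 of 21 libraries correlated best with their own letter), and the fit with the letter as a replicate block gave 11.4 points with adjusted p = 0.000345. The pooled comparison of injured with uninjured mice and the 9 pairs passed under no setting. Differences from uninjured muscle changed sign at 5 dpi (-0.0422 points with the BBKNN label, -0.0165 with that of Scanorama or of all 3) and at 7 dpi (-0.0525 with BBKNN, -0.0534 with Scanorama or all 3), and 7 dpi minus 5 dpi was 0.0901 points under the stricter cell filter. The largest difference in the share of myeloid cells, -16.9 to -9.60 points without single libraries, became 9.03 points with immune cells as denominator.

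Measures of neutrophils past the threshold over time numbered 0 with means over cells, 1 with at least 750 genes, 0 with all 3 labels and 0 to 3 without single libraries (0 without 8 of 16). The log2 difference in genes from 1 dpi was 0.22 with at least 750 genes and -0.34 to 0.35 without single libraries, and that in UMIs -0.72 to 0.37. The tests of UMIs and genes per cell passed in 9 of 9 under every setting, or 6 of 6 with at least 750 genes, where cells with few genes could not be counted. Genes within the UMI window passed in 2 of 3 tests, 1 of 3 for 1000 to 2000 UMIs and 1 of 3 with all 3 labels. The cause of these changes was not tested. With 1 to 20 neutrophils in 9 libraries, counting error limits the shares of uninjured, 5 and 7 dpi muscle.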

Other observations

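Cells that Harmony left without a label included 29 that BBKNN and 24 that Scanorama called neutrophils. A further 51 BBKNN and 11 Scanorama neutrophils had another Harmony label. Before a noisy cluster was removed, each cell had carried an earlier label. By that label 2015 of the 2414 Harmony neutrophils (83.5%) were neutrophils, against 1831 by BBKNN and 1730 by Scanorama.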
